A study of Mus musculus with 2 samples.

Results

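The 10 genes described here encode transcription factors, listed together under the heading of spinal motor neuron identity, columns and pools. They were chosen by name, as Mnx1, Isl1, Isl2, Lhx3, Lhx4, Foxp1, Etv4, Pou3f1, Nkx6-3 and Mecom, and each was found by its Ensembl identifier in both gene tables, among 43346 gene rows. The tables hold total RNA from mouse embryos at day 14.5 of gestation, taken from the neural tube, which gives rise to the central nervous system. The study has 1 group of 2 libraries of the B6NCrl strain, with no treatment or altered allele named in the labels. Replicate 2 came from pup 1 of pregnant female 2 and replicate 1 from pup 1 of pregnant female 1, each as a single tube with 10 ng of RNA taken for the library, and the labels also give the sex as pooled male and female. Gene rows held 25428747 estimated reads in replicate 2 and 32255363 in replicate 1. The libraries stand apart in marker genes of ganglia, meninges and vessels, which were higher in replicate 2. With a single group there is no contrast between conditions, so levels are given for each library and the ratio of replicate 2 to replicate 1 describes these 2 libraries, with no test.

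Motor neurons arise from ventral progenitors that express Olig2, and they switch on Mnx1, Isl1 and Lhx3 as they leave the cell cycle. Isl1 and Lhx3 are LIM homeodomain proteins that bind DNA in one complex held together by Ldb1, whereas Lhx3 with Ldb1 but without Isl1 acts in V2a interneurons. Later the columns diverge. Lhx3 and Lhx4 stay on in the medial column, which supplies the axial muscles, Foxp1 works with Hox proteins in the lateral column of the limb levels, and Etv4 and Pou3f1 mark single motor pools there. Isl1 and Isl2 are also made by sensory neurons of the dorsal root ganglia beside the cord, and Isl1 by sympathetic neurons.

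Isl1 and Isl2, and likewise Lhx3 and Lhx4, are close relatives, so the part of each message where the pair is most alike is shown first, because it bears on how well reads can be assigned to each gene. The homeobox, the stretch that codes for the DNA-binding homeodomain, was read from the GENCODE transcripts of Isl1 (chr13:116303091-116303270, minus strand, exon 4 of 6), Isl2 (chr9:55544135-55544314, plus strand, exon 4 of 6), Lhx3 (chr2:26202221-26202487, minus strand, exons 4 and 5 of 6) and Lhx4 (chr1:155704831-155705309, minus strand, exons 4 and 5 of 6), all on GRCm38. Capitals mark the bases that differ within each pair.
Isl1: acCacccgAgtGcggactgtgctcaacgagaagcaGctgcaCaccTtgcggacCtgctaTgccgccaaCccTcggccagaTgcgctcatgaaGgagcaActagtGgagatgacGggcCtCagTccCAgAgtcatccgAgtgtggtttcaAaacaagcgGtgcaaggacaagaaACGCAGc
Isl2: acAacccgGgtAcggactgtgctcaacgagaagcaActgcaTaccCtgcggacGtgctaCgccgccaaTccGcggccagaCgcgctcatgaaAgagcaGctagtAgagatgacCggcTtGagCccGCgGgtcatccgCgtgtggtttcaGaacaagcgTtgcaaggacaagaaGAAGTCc
Lhx3: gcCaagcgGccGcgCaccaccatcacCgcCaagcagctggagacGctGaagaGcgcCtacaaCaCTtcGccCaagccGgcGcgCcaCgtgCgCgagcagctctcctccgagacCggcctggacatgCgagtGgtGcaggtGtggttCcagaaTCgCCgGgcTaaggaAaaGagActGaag
Lhx4: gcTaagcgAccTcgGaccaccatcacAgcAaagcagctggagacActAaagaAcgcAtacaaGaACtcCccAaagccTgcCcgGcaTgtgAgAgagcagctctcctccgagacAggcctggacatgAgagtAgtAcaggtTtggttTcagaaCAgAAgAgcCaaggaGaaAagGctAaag
The Isl1 and Isl2 homeoboxes shared 150 of 180 bases (83.3%), and 23 of the 30 differences fell on the third base of a codon. Those of Lhx3 and Lhx4 shared 143 of 180 (79.4%), with 31 of 37 differences on the third base. The longest stretch shared without a mismatch by any transcript of the pair was 23 bases for Isl1 and Isl2 and 20 bases for Lhx3 and Lhx4. The read length is not given in the sources used here.

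Of the 10 genes, 9 reached a level of 1 TPM, the deposited abundance per unit of transcript length, in both libraries, against 60.8% of 21474 protein-coding genes and 34.7% of all gene rows. The exception was Nkx6-3. The median of the 10 mean levels was 6.84 TPM, beside 5.41 TPM for all protein-coding genes. The 10 genes summed to 189.9 TPM in replicate 2 and 103 TPM in replicate 1, and Foxp1 with Isl1 made up 65.9% of that sum in replicate 2 and 62.8% in replicate 1. In a bulk sample, fewer cells of a type and less RNA per cell cannot be told apart.

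**Figure D1:**
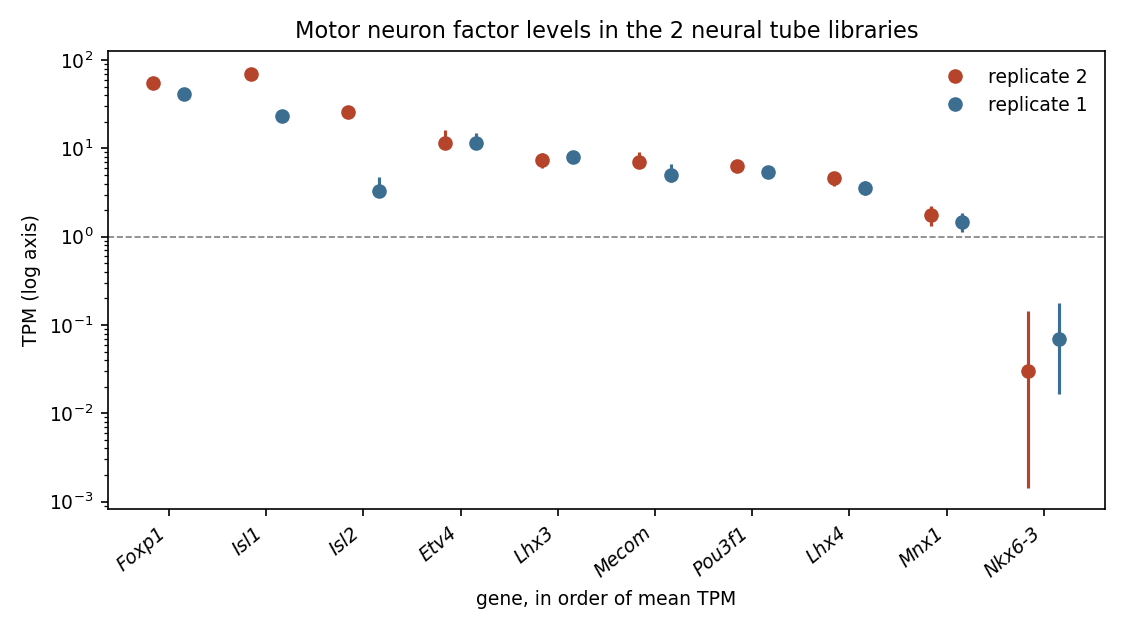
TPM of each gene (log axis) in replicate 2 and replicate 1, ordered by mean TPM, where points are the deposited TPM, vertical lines the authors' credibility bounds, and the dashed line 1 TPM. Isl1 and Isl2 show the widest gaps between the libraries, and Nkx6-3 alone lies below the dashed line.

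Mnx1, the homeodomain factor that keeps motor neurons from taking on interneuron traits, had the lowest level of the identity factors. It stood at 1.77 TPM in replicate 2 (54 counts), with credibility bounds from 1.31 to 2.24, and at 1.45 TPM in replicate 1 (63 counts), with bounds from 1.12 to 1.84 (ENSMUSG00000001566.9, chromosome 5, 29473034 to 29478470, minus strand, GRCm38). The bounds are the authors' own and the files do not state their level. The mean was 1.61 ± 0.226 TPM (SD, n = 2), at percentile 40.1 of protein-coding genes. The 2 libraries were close, and their bounds overlap.

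Isl1, which acts in newborn motor neurons and remains on in some columns, stood at 70.2 TPM in replicate 2 (1972 counts) and at 23.6 TPM in replicate 1 (834 counts) (ENSMUSG00000042258.9, chromosome 13, 116298281 to 116309689, minus strand). Isl2, its relative, which follows Isl1 in postmitotic motor neurons, stood at 26.2 TPM in replicate 2 (636 counts) and at 3.32 TPM in replicate 1 (117 counts) (ENSMUSG00000032318.8, chromosome 9, 55538672 to 55546180, plus strand). Both genes were higher in replicate 2, with credibility bounds that do not overlap, from 62.5 to 74.3 TPM in replicate 2 and from 20.9 to 26.9 TPM in replicate 1 for Isl1, and from 23.7 to 29.2 TPM in replicate 2 and from 2.99 to 4.79 TPM in replicate 1 for Isl2. Their means, 46.9 ± 32.9 TPM and 14.7 ± 16.2 TPM (SD, n = 2), therefore describe neither library well. The pair did not move in proportion, as Isl1 lay 2.68 times above Isl2 in replicate 2 and 7.12 times above it in replicate 1 on the TPM scale.

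Lhx3 stood at 7.41 TPM in replicate 2 (188 counts) and at 7.95 TPM in replicate 1 (299 counts) (ENSMUSG00000026934.11, chromosome 2, 26200212 to 26208289, minus strand). Lhx4, which shares its role in the medial column and in V2a interneurons, stood at 4.63 TPM in replicate 2 (303 counts) and at 3.59 TPM in replicate 1 (335 counts) (ENSMUSG00000026468.10, chromosome 1, 155698031 to 155751684, minus strand). The libraries differed little for either gene, with means of 7.68 ± 0.382 and 4.11 ± 0.735 TPM (SD, n = 2). Lhx3 exceeded Lhx4 in TPM in both libraries, by 1.6 times in replicate 2 and 2.21 times in replicate 1, while the order by counts was the opposite because the Lhx4 transcripts are longer. Relative to Lhx3, Isl1 stood 9.47 times higher in replicate 2 and 2.97 times higher in replicate 1.

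Among the column factors, Foxp1 had the highest mean level of the 10 genes. It stood at 55.1 TPM in replicate 2 (2554 counts) and at 41.2 TPM in replicate 1 (2698 counts), a mean of 48.1 ± 9.82 TPM (SD, n = 2), at percentile 83.4 of protein-coding genes (ENSMUSG00000030067.13, chromosome 6, 98925338 to 99522721, minus strand). It stood 31.1 times above Mnx1 in replicate 2 and 28.4 times in replicate 1. Foxp1 is also made in many other neurons and in non-neural cells, so its level in whole tissue is not that of the lateral motor column. Mecom, a zinc finger factor best known from blood stem cells and also present in endothelium, stood at 6.98 TPM in replicate 2 (344 counts) and at 5.02 TPM in replicate 1 (308 counts) (ENSMUSG00000027684.12, chromosome 3, 29951296 to 30548008, minus strand). Its mean was 6 ± 1.39 TPM (SD, n = 2), and its credibility bounds overlap between the libraries.

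The 2 pool factors were at moderate levels and close between the libraries. Etv4, an ETS factor that limb motor pools switch on under signals from the periphery, stood at 11.4 TPM in replicate 2 (311 counts) and at 11.6 TPM in replicate 1 (395 counts), a mean of 11.5 ± 0.148 TPM (SD, n = 2) (ENSMUSG00000017724.10, chromosome 11, 101769742 to 101785371, minus strand). Pou3f1, a POU factor of some brachial pools that Schwann cells also use, stood at 6.34 TPM in replicate 2 (356 counts) and at 5.34 TPM in replicate 1 (406 counts), a mean of 5.84 ± 0.707 TPM (SD, n = 2) (ENSMUSG00000090125.3, chromosome 4, 124656807 to 124660655, plus strand). For Etv4 the deposited posterior mean gave a higher level, 13.2 TPM over both libraries. Nkx6-3, a homeodomain factor related to the progenitor factors Nkx6-1 and Nkx6-2, stood at 0.03 TPM in replicate 2 (1 count) and at 0.07 TPM in replicate 1 (3 counts) (ENSMUSG00000063672.7, chromosome 8, 23153269 to 23158948, plus strand). Both counts lie at or under the floor of 3 counts used here, so Nkx6-3 was not detectable above it and no ratio is given.

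In order of mean TPM the genes ran Foxp1, Isl1, Isl2, Etv4, Lhx3, Mecom, Pou3f1, Lhx4, Mnx1 and Nkx6-3. The order of 3 neighbouring pairs turned between the libraries. Isl1 lay above Foxp1 in replicate 2 and below it in replicate 1, Isl2 lay above Etv4 in replicate 2 and below it in replicate 1, and Pou3f1 lay below Mecom in replicate 2 and above it in replicate 1. The ranges of Isl1 and Isl2 also overlap across the libraries, although Isl1 was higher in each. For the other 5 neighbouring pairs the ranges do not overlap, but the credibility bounds of Lhx3 and Mecom overlap in replicate 2.

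Set on one scale by normalised read counts, Isl1 and Isl2 were the members that differed most between the libraries. Of the 9 members with a mean of at least 10 counts, 2 were at least 1.5-fold higher in replicate 2, against 10.8% of 17623 genes that passed the same filter, and 0 were at least 1.5-fold lower, against 8.47%. Isl2 was 6.86-fold higher in replicate 2 with a counting interval from 5.64 to 8.46, at percentile 98.9 of all ratios. Isl1 was 2.99-fold higher with an interval from 2.76 to 3.25, at percentile 97.2. The intervals are exact (Clopper-Pearson, 95%) and cover counting error only, not the spread between embryos. The other 7 lay within 1.5-fold, from a log2 ratio of -0.33 for Lhx3 to 0.50 for Mecom. Mnx1 had a log2 ratio of 0.12 with a fold interval from 0.74 to 1.59, which still includes a 1.5-fold excess in replicate 2. So does that of Mecom, from 1.21 to 1.65, and that of Lhx3, from 0.66 to 0.959, just reaches a 1.5-fold deficit.

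The median log2 ratio of the 9 members was 0.20, beside -0.0047 over all 17623 genes. Their median coefficient of variation of TPM was 17.9%, beside 11.7%. Scaling by the spike-in RNA in place of TMM raised every log2 ratio by 0.55. Under it 7 of the 9 members passed 1.5-fold upward in replicate 2, against 44.4% of the 17623 genes. That step turned Lhx3 to 0.22 and Etv4 to 0.54, from values of -0.33 and -0.0038 by gene scaling, so the direction of Lhx3 holds only relative to other genes, and Etv4 has none, its sign turning with other scalings too. For Foxp1 the log2 ratio was 0.41 by TPM, against 0.26 by counts. Isl1 and Isl2 were higher in replicate 2 under every scaling and unit tried, with log2 ratios from 1.46 to 2.13 for Isl1 and from 2.62 to 3.33 for Isl2.

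**Figure D2:**
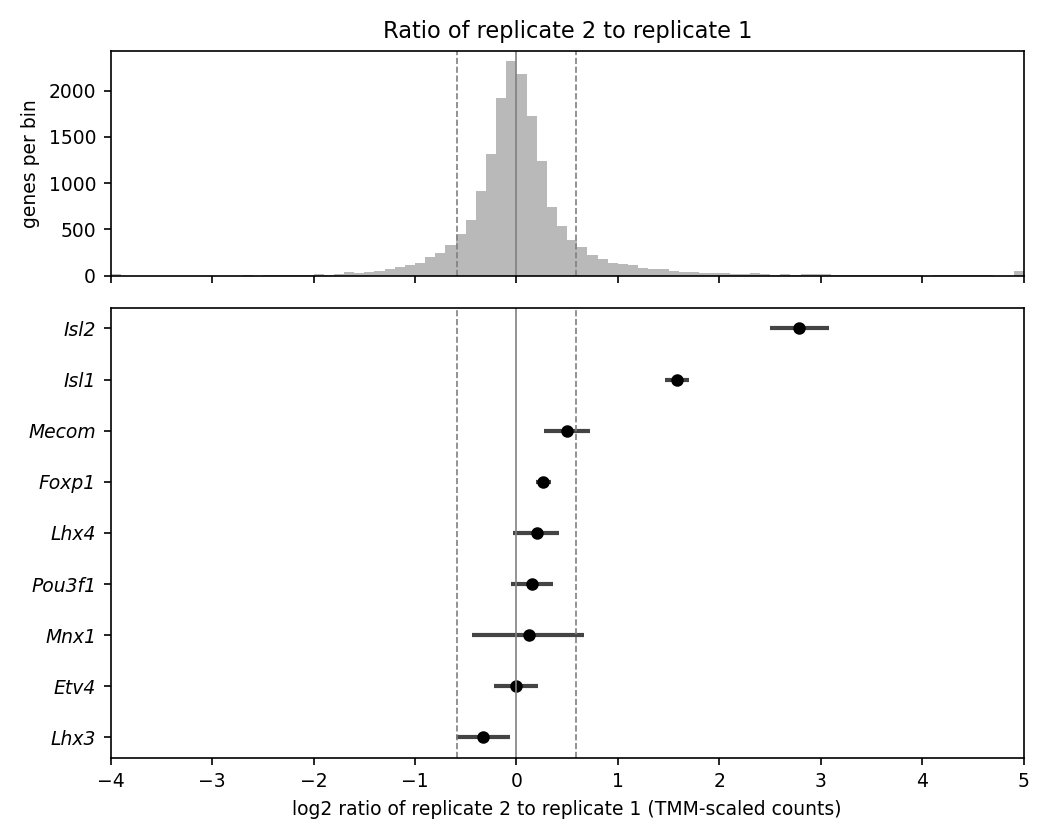
Lower panel, log2 ratio of replicate 2 to replicate 1 for the 9 members past the count filter, with exact counting intervals as bars. The upper panel gives the same ratio for all 17623 genes in bins, with values beyond the axis placed in the end bins, and dashed lines mark 1.5-fold. Isl2 and Isl1 lie outside the dashed lines and the other 7 points lie between them.

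Markers of tissue that adjoins the tube moved in the same direction as Isl1 and Isl2. Of 9 sensory ganglion genes, 9 exceeded replicate 1 by 1.5-fold or more in replicate 2, against 10.8% of all 17623 genes. Their summed level was 169.8 TPM in replicate 2 and 11.4 TPM in replicate 1. The sodium channel gene Scn9a, the one gene of the list at 1 TPM or more in both, had 18.9 TPM in replicate 2 and 8.87 TPM in replicate 1. The defining ganglion genes Scn10a and Trpv1 had 706 and 195 counts in replicate 2 and 3 and 2 counts in replicate 1. Of the 4 sympathetic genes, 2 passed the count filter and both were higher in replicate 2, Th with 22.4 TPM in replicate 2 and 1.31 TPM in replicate 1 and Dbh with 0.52 TPM in replicate 2 and 0.08 TPM in replicate 1. The sympathetic factor Hand2 had 1 count in replicate 2 and 0 in replicate 1. The part of these tissues in the Isl1 and Isl2 difference was not tested.

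Other marker lists moved as well. Meningeal and fibroblast genes were higher in replicate 2 in 8 of 8 cases, with a summed level of 982 TPM in replicate 2 and 44.5 TPM in replicate 1, led by the collagen genes Col3a1 (419 TPM in replicate 2 and 9.7 TPM in replicate 1) and Col1a2 (215 TPM in replicate 2 and 6.42 TPM in replicate 1). Schwann cell genes summed to 31.1 TPM in replicate 2 and 9.19 TPM in replicate 1, with 4 of 5 at least 1.5-fold higher, among them Sox10 with 11.8 TPM in replicate 2 and 6.1 TPM in replicate 1, and with Cdh19 at 0 counts in replicate 1. Endothelial genes summed to 209 TPM in replicate 2 and 92 TPM in replicate 1, with 9 of 9 at least 1.5-fold higher, led by Cldn5 and Esam. Skeletal muscle genes went the other way, at 23.1 TPM in replicate 2 and 47.5 TPM in replicate 1, with 7 of 8 at least 1.5-fold lower in replicate 2, led by Acta1 and Mylpf. Endothelium can express Mecom and Foxp1, and Schwann cells Pou3f1, and the part of those cells in the levels of these genes was not tested.

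The markers of the labelled tissue itself summed to close values. All 10 of 10 genes of neurons and neural progenitors reached 1 TPM in both libraries, and they summed to 5345 TPM in replicate 2 and 5335 TPM in replicate 1, led by Fabp7 and Tubb3. Of these, 1 of 10, Nes, was at least 1.5-fold higher in replicate 2, against 10.8% of all 17623 genes. In the list 0 were as far below, against 8.47%. Genes of neurons in general are not exclusive to the tube, so the sums do not measure how much of each library came from it. The close sums also cover unlike ratios of replicate 2 to replicate 1 by scaled counts. Nes stood at 1.56, Sox2 at 1.49 and Vim at 1.31. Snap25 stood at 0.727, Elavl3 at 0.855, Stmn2 at 0.891 and Map2 at 0.893. The remaining genes were Tubb3 at 0.947, Fabp7 at 0.957 and Pax6 at 0.97.

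Among genes that act with the 10 factors, 8 of progenitors and specification were compared. All 8 of 8 reached 1 TPM in both libraries, against 60.8% of protein-coding genes. None of the 8 passed 1.5-fold in either direction. Most of the 17623 genes did not either, with 10.8% at least 1.5-fold higher in replicate 2 and 8.47% lower. Ldb1, the adaptor of the LIM complex, had 83.2 TPM in replicate 2 and 75.8 TPM in replicate 1, and Lmo4, a LIM-only protein that competes for Ldb1, had 74.2 TPM in replicate 2 and 80.9 TPM in replicate 1. Both adaptor genes were thus above every one of the 10 factors in each library. Olig2, the progenitor factor, was at 5.51 TPM in replicate 2 and 6.86 TPM in replicate 1.

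Effector genes of mature motor neurons were split. Of 8, 2 were 1.5-fold or more above replicate 1 in replicate 2, against 10.8% of all 17623 genes. None was as far below it, against 8.47%. Prph, the peripheral neurofilament protein that sensory and sympathetic neurons also make, had 239 TPM in replicate 2 and 53.2 TPM in replicate 1, a ratio of 4.19 with an interval from 3.98 to 4.42, and Ret, a receptor for glial-derived factors that sensory neurons share, had 20.4 TPM in replicate 2 and 11.9 TPM in replicate 1. The genes of acetylcholine synthesis and transport lay within 1.5-fold by scaled counts. Chat, the enzyme that makes acetylcholine, had 2.91 TPM in replicate 2 and 2.97 TPM in replicate 1, its vesicular transporter Slc18a3 had 26.6 TPM in replicate 2 and 24.8 TPM in replicate 1, and the choline transporter Slc5a7 had 11.6 TPM in replicate 2 and 10.1 TPM in replicate 1. Agrn, the agrin of the neuromuscular junction, was at 111 TPM in replicate 2 and 79.4 TPM in replicate 1. The part of sensory or sympathetic neurons in the levels of the effector genes was not tested.

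Of 11 column and pool genes outside the Hox clusters, 3 were 1.5-fold or more above replicate 1 in replicate 2, against 10.8% of all 17623 genes. None was as far below it, against 8.47%. Aldh1a2, the retinoic acid enzyme of the lateral column and of the meninges, had 57.5 TPM in replicate 2 and 9.5 TPM in replicate 1. Runx1, a pool factor that pain-sensing ganglion neurons and blood cells also use, had 5.29 TPM in replicate 2 and 0.46 TPM in replicate 1. Etv1, an ETS factor of motor pools and of muscle sensory neurons, had 24.2 TPM in replicate 2 and 11.1 TPM in replicate 1. The part of meninges, ganglia or blood in the levels of these 3 genes was not tested. The highest of the list by mean TPM were close between the libraries, as the nuclear receptor gene Esrrg had 40.5 TPM in each library and Lhx1, which marks the lateral division of the limb column and several interneurons, had 38.8 TPM in replicate 2 and 38.3 TPM in replicate 1.

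Hox genes, with which Foxp1 acts, differed in both directions, beside 10.8% of all 17623 genes 1.5-fold higher in replicate 2 and 8.47% lower. Of 8, 3 were at least 1.5-fold higher in replicate 2, namely Hoxc8 (111 TPM in replicate 2 and 39.6 TPM in replicate 1), Hoxc6 (31.6 TPM in replicate 2 and 18.1 TPM in replicate 1) and Hoxc5 (8.31 TPM in replicate 2 and 2.87 TPM in replicate 1), which act at neck and forelimb levels. Another 3 were at least 1.5-fold lower, namely Hoxd10 (45.3 TPM in replicate 2 and 71.4 TPM in replicate 1), Hoxc10 (37.7 TPM in replicate 2 and 75 TPM in replicate 1) and Hoxa10 (41.5 TPM in replicate 2 and 63.1 TPM in replicate 1), which act at lumbar levels. Under spike-in scaling the log2 ratios of these 3 stayed below 0, at -0.20 for Hoxd10, -0.54 for Hoxc10 and -0.12 for Hoxa10, and none of the 8 Hox genes was 1.5-fold lower. The thoracic gene Hoxc9 had 40.7 TPM in replicate 2 and 37.2 TPM in replicate 1. Foxp1, by comparison, was 1.2-fold higher in replicate 2, with an interval from 1.14 to 1.27.

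Genes of interneurons that share factors with motor neurons lay within 1.5-fold between the libraries where a ratio was given. So did most of the 17623 genes, with 10.8% at least 1.5-fold higher in replicate 2 and 8.47% lower. Of 7 V2 genes, 6 passed the count filter and none of the 6 passed 1.5-fold by scaled counts, led by Gata3 (10.6 TPM in replicate 2 and 6.87 TPM in replicate 1, and 1.37-fold by scaled counts) and Shox2 (8.49 TPM in replicate 2 and 8.33 TPM in replicate 1). Of the genes of dI3 and dI5 neurons, of which dI3 neurons express Isl1, 3 of 4 were matched and none of the 3 passed 1.5-fold. Pou4f1 stood at 71.2 TPM in replicate 2 and 65.7 TPM in replicate 1, and 0.948-fold by scaled counts. Tlx3 stood at 33.5 TPM in replicate 2 and 26 TPM in replicate 1, and 1.21-fold by scaled counts. Whether Pou4f1 and Tlx3 came from these interneurons alone, or also from sensory ganglia, was not tested.

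Relative to the spike-in RNA these counts shift. None of the 8 specification factors passed 1.5-fold by gene scaling, but 3 of 8 passed it upward by spike-in scaling. By that scaling 4 of 8 effector genes did, 6 of 11 column and pool genes and 4 of 8 Hox genes. So did 2 of 6 V2 genes, 1 of 3 dI3 and dI5 genes and 3 of 10 markers of the labelled tissue. Of all 17623 genes, 44.4% passed upward in the same way, and whether any list departs from that share was not tested. Of the muscle genes, 7 of 8 were 1.5-fold lower by gene scaling and 4 of 8 by spike-in scaling.

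**Figure D3:**
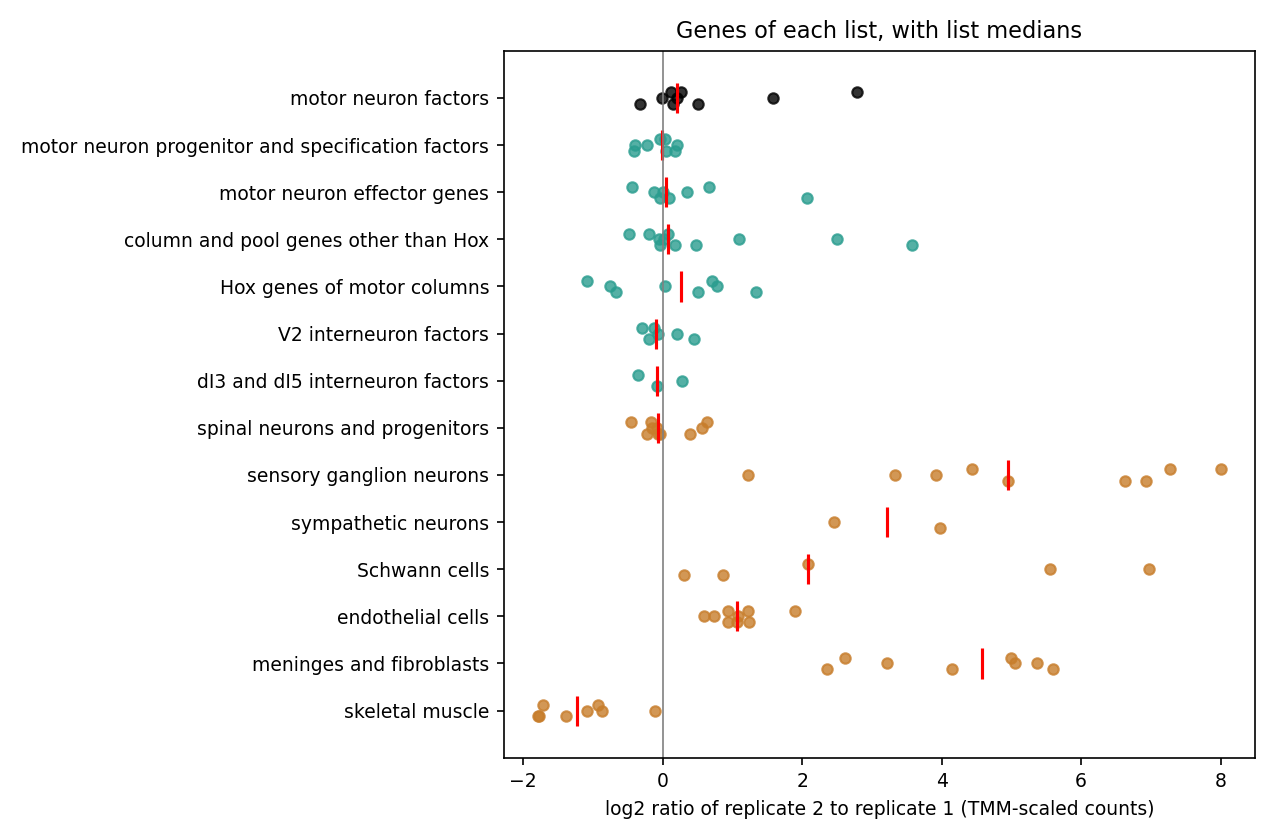
Log2 ratio of replicate 2 to replicate 1 for each gene that passed the count filter, by list, with list medians as red lines. Motor neuron factors are black, lists of genes that act with them green and cell type markers orange, and Cdh19 is placed at its lower bound against 3 counts. Sensory ganglion and meningeal genes all lie right of 0, with medians of 4.95 and 4.58, while the list of specification factors has a median of -0.0087.

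Deposited transcript estimates divide each gene's level among its annotated messages. For Isl1, the full-length coding transcript Isl1-201 led in both libraries, with 46.8 TPM (66.7% of the gene) in replicate 2 and 13.1 TPM (55.6%) in replicate 1. The shorter coding transcript Isl1-202 had 8.15 TPM in replicate 2 and 5.58 TPM in replicate 1, with overlapping credibility bounds, from 4.46 to 11.2 in replicate 2 and from 2.55 to 7.26 in replicate 1. The excess of Isl1 in replicate 2 thus lay mostly in Isl1-201, whose bounds run from 42.2 to 47.8 TPM in replicate 2 and from 11.4 to 14.2 TPM in replicate 1. Transcripts with a retained intron held 21.6% of Isl1 in replicate 2 and 19.8% in replicate 1. Among them Isl1-203, second by mean TPM, was also higher in replicate 2, with 14.4 TPM there and 4.29 TPM in replicate 1. Its bounds do not overlap, from 7.7 to 20.2 in replicate 2 and from 1.39 to 6.82 in replicate 1.

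Isl2 was led by Isl2-201, with 18.8 TPM in replicate 2 and 3.15 TPM in replicate 1. A transcript annotated for nonsense-mediated decay, Isl2-202, took 132 counts in replicate 2 and 4.8 in replicate 1, which is 23.5% of the gene in replicate 2 and 4.98% in replicate 1. By posterior means its share was 23.4% in replicate 2 and 16% in replicate 1, so the low share in replicate 1 rests on the estimate used.

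Lhx4 came mostly from Lhx4-201, at 77.2% in replicate 2 and 82.5% in replicate 1. Pou3f1 and Nkx6-3 have a single annotated transcript each. Mnx1 has 2 that share their first base, and the longer, Mnx1-202, took 52.5% in replicate 2 and all of the gene in replicate 1, from 54 counts for the whole gene in replicate 2 and 63 in replicate 1. By posterior means its share was 53.9% in replicate 2 and 84.8% in replicate 1. Lhx4-202 held the rest of Lhx4. Etv4 was led by the coding transcript Etv4-201 in both libraries, with 63.5% in replicate 2 and 41% in replicate 1, and by posterior means with 39.6% in replicate 2 and 32.1% in replicate 1.

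For Lhx3 the leading transcript was not the same in the 2 libraries. Lhx3-202, which begins at the upstream start, had 3.83 TPM (119.7 counts) in replicate 2 and 2.23 TPM (94 counts) in replicate 1. Lhx3-201, from the downstream start inside the gene, had 1.25 TPM (39.7 counts) in replicate 2 and 3.09 TPM (133 counts) in replicate 1. The credibility bounds of each transcript overlap between the libraries, from 1.79 to 4.94 in replicate 2 and from 0.736 to 3.29 in replicate 1 for Lhx3-202, and from 0.253 to 2.77 in replicate 2 and from 1.78 to 4.58 in replicate 1 for Lhx3-201. The turn is therefore not resolved at this depth. The retained-intron transcripts Lhx3-204 and Lhx3-203 together held 31.4% of Lhx3 in replicate 2 and 33.2% in replicate 1.

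The RefSeq windows around these starts, 250 bases before to 50 after, are shown because the 2 Lhx3 transcripts begin in them and because Isl1 and Isl2 are the pair that differed between the libraries. The windows lie on GRCm38.p6 at chr2:26208200-26208499 (minus strand) for the upstream Lhx3 start, chr2:26206526-26206825 (minus strand) for the downstream Lhx3 start, chr13:116309639-116309938 (minus strand) for Isl1 and chr9:55540899-55541198 (plus strand) for Isl2. Capitals mark matches to the TATA motif (TATAAA), to the core that many homeodomains recognise (TAATTA) and to the CCAAT motif, at any position. Each was sought on either strand, and no 2 matches overlap in the windows shown.
Lhx3 upstream start: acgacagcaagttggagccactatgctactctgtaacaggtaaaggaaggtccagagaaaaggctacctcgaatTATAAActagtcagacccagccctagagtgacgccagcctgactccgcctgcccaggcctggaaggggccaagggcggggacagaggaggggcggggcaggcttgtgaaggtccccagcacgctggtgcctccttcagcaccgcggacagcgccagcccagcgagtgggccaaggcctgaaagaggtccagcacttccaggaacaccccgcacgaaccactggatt
Lhx3 downstream start: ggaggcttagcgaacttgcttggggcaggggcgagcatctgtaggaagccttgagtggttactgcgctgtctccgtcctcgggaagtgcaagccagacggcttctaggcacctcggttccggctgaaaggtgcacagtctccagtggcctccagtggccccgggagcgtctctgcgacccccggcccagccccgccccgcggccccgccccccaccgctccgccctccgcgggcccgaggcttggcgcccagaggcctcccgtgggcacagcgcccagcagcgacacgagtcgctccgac
Isl1: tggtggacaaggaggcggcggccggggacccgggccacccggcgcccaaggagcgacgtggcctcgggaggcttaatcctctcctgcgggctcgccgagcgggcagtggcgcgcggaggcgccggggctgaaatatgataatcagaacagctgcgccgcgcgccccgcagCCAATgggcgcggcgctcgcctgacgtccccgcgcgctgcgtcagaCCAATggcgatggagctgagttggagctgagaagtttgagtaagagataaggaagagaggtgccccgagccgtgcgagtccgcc
Isl2: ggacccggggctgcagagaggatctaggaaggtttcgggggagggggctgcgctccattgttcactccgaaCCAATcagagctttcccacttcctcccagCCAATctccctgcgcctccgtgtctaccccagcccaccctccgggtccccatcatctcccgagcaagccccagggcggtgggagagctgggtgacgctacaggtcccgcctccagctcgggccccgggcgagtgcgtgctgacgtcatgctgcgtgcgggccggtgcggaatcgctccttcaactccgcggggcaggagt
The upstream Lhx3 window holds 1 TATAAA, found in 13.6% of all 32851 RefSeq windows of this length, and the downstream window holds none of the 3 motifs. That TATAAA lies nearer the far end of the window than the start, and whether it acts as a TATA box was not tested. The Isl1 and Isl2 windows each hold 2 CCAAT, a motif present in 37.4% of all windows, and neither holds TAATTA, which 5.29% of all windows hold. Across members, 7 of 10 genes matched the RefSeq table with 11 windows, and 8 of the 11 lay above the median GC content of 52.7%, in a range from 48.7% for the middle Foxp1 start to 75.3% for the downstream Foxp1 start. The Mnx1 window, at 66.3% GC, holds 3 CCAAT.

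Foxp1 has 32 annotated transcripts, of which 17 had counts in replicate 2 and 20 in replicate 1. Among them is 1 that the release used for symbols names for the overlapping gene Gm20696. It had 3.68 counts in replicate 2 and 4.83 counts in replicate 1. By TPM the leading one was Foxp1-225, a short coding transcript from the downstream start, with 23.7 TPM in replicate 2 and 16.8 TPM in replicate 1. By counts the leading one was Foxp1-204, a long coding transcript from an upstream start, with 1239 counts in replicate 2 and 1764 counts in replicate 1, since it is 7177 bases long against 1848 bases. Transcripts that begin within 1000 bases of the downstream RefSeq start held 46% of Foxp1 in replicate 2 and 47.1% in replicate 1, and those from the middle start 9.56% in replicate 2 and 2.55% in replicate 1. The middle group includes Foxp1-206, with 3.84 TPM in replicate 2 and 0.5 TPM in replicate 1, whose bounds overlap, from 2.09 to 7.28 in replicate 2 and from 3.62e-05 to 2.88 in replicate 1.

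Mecom has 17 annotated transcripts, of which 10 had counts in each library, and the leading one was not the same in both. Mecom-212, first by mean TPM and in replicate 1, begins at the distal start and had 1.86 TPM in replicate 2 and 1.53 TPM in replicate 1. Mecom-203, first in replicate 2, starts inside the locus and had 2.28 TPM in replicate 2 and 0.5 TPM in replicate 1, with bounds that do not overlap, from 1.22 to 3.02 in replicate 2 and from 0.000235 to 0.841 in replicate 1. Its share of the gene was 32.6% in replicate 2 and 10% in replicate 1. Transcripts from the distal start together had 2.48 TPM in replicate 2 and 2.33 TPM in replicate 1, so most of the difference in Mecom lay outside them.

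**Figure D4:**
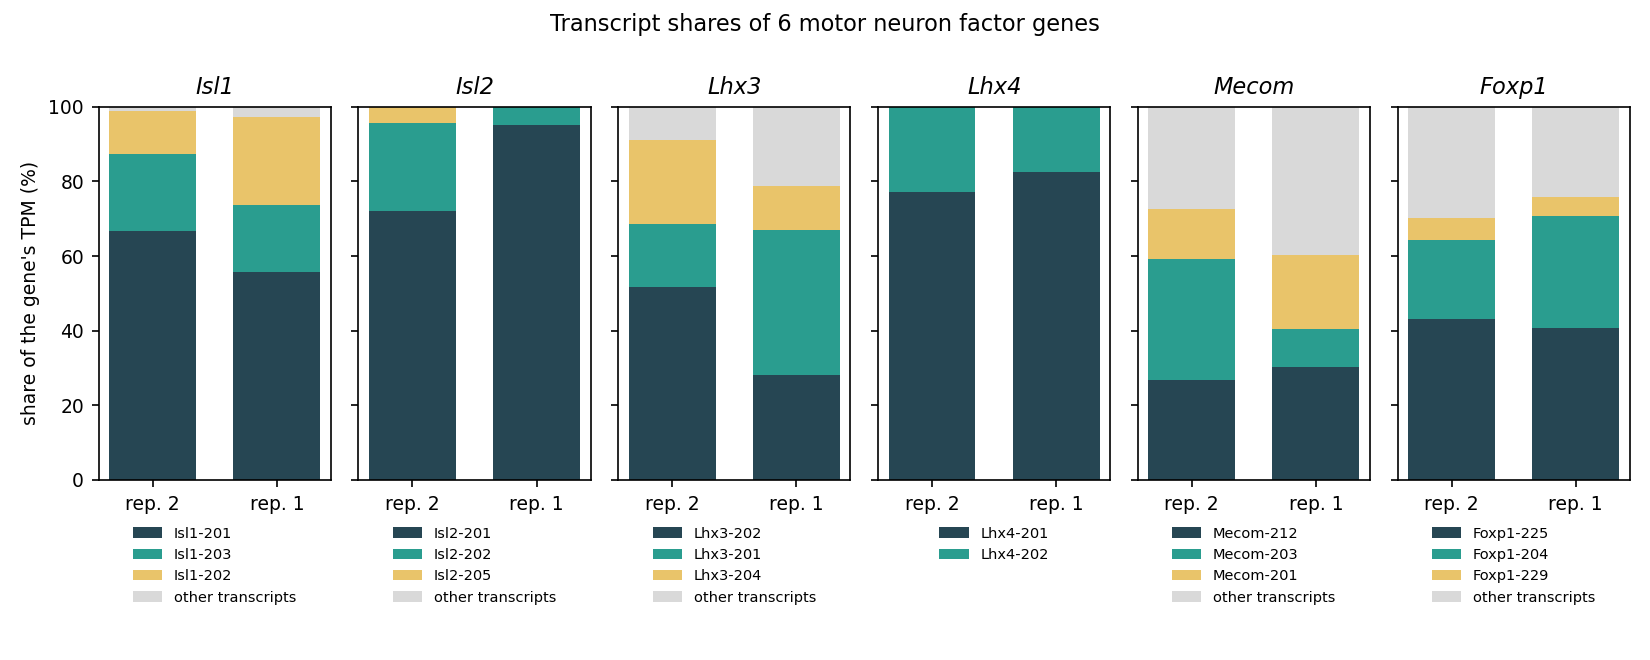
Share of each gene's TPM (%) in its 3 leading transcripts and in the others, for 6 genes, with replicate 2 left of replicate 1 in each panel. Lhx3-202 is the largest part of Lhx3 in replicate 2 and Lhx3-201 in replicate 1, and Mecom-203 is larger in replicate 2.

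Several members overlap other annotated genes, and whether the counting used strand is not given in the sources used here. Antisense to Lhx3 lies Gm27196, with 9.41 counts in replicate 2 and 18.6 counts in replicate 1, which covers the upstream Lhx3 start. Antisense to Isl2 lies Gm17226, with 5 counts in replicate 2 and 0 in replicate 1, antisense to Pou3f1 lies Gm2164, with 1.21 counts in replicate 2 and 0 in replicate 1, and antisense to Mecom lie Mecomos, with 3 counts in replicate 2 and 6 counts in replicate 1, and Gm37024, with 8 counts in replicate 2 and 11 counts in replicate 1. On the same strand as Foxp1, Gm20696 had 67.4 counts in replicate 2 and 46.8 counts in replicate 1. The 7 other overlapping genes, Gm20705 and Gm22328 in Foxp1 and Gm38197, Gm38066, Gm37652, Gm38362 and Gm10258 in Mecom, had at most 9 counts in a library. Each of these counts is small beside the count of the member it overlaps, though reads the authors assigned to the member may come from its partner.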

How the data were processed

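Total RNA of 2 neural tubes was profiled, and the labels' description gives the replicate number. Reads were aligned to mm10 with release M4 of the GENCODE mouse annotation, according to texts that accompany the deposited files, and each library was quantified alone. No aligner, quantifier or strand option is named in the sources used here. Deposited expected counts are the authors' estimated reads per gene or transcript, not normalised, per the file headers. Deposited TPM sums to the same total in both libraries, over all rows with spike-ins included, and deposited FPKM divides the count by length and library depth, per the file headers. Deposited percent columns give each transcript's share of its gene, and the credibility bounds are the authors', per the file headers.

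Gene rows held 25428747 counts in replicate 2 and 32255363 in replicate 1, and spike-ins 2.29% of all counts in replicate 2 and 3.31% in replicate 1. Symbols and GRCm38 coordinates came from GENCODE M21 by identifier without version, for 42462 of 43346 gene rows. Rounded counts were scaled by TMM in edgeR 4.0.16 under R 4.3.3, a prior count of 0.5 was added, a mean count of at least 10 was required, and a ratio of 1.5-fold in these scaled counts, not in TPM, stands in for a call. DESeq2 1.42.0 size factors, spike-in and total scaling, TPM, FPKM, posterior means, other thresholds and each library alone were the alternatives. A homeobox is 180 bases placed by the motif for tryptophan, phenylalanine, asparagine and arginine in the recognition helix.

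The 10 members and the 13 lists, with 99 entries, were chosen with earlier results of these data known. Drgx, of the dI3 and dI5 list, was not analysed here, and some list genes that the rule below would name are not reported here. Named are all members, the 2 highest genes of each list, overlapping genes and leading transcripts. Nes, Sox2, Vim, Snap25, Elavl3, Stmn2, Map2, Pax6, Olig2, Chat, Slc18a3, Slc5a7, Ret, Aldh1a2, Runx1, Etv1, Hoxc5, Hoxc6, Hoxc9, Hoxc10, Hoxa10, Dbh, Scn10a, Trpv1, Hand2, Cdh19, Lhx3-203 and Foxp1-206 lie beyond that rule, and they were picked with their values in view. No gene is named for a like pattern, since 2 libraries of 1 group give none. The 2 samples are separate embryos, per the labels. Intervals came from SciPy 1.17.1, figures from matplotlib 3.10.9, and tables from pandas 2.3.3 with NumPy 2.4.6 under Python 3.11.15.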

Additional observations from a re-analysis of the deposited data

How the results depend on the processing

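Of 26 alternative values for the counts of members (detected, higher, lower), 24 stayed within 1.5 times the main count. Under spike-in scaling 7 members, in place of 2, were at least 1.5-fold higher in replicate 2, beside 44.4% of all genes tested, because that scaling raises every ratio by 1.46 times. With no filter on low counts 1 member, in place of 0, was at least 1.5-fold lower, and it was Nkx6-3, with 1 count in replicate 2 and 3 counts in replicate 1. The count of detected members was 9 under every alternative tried except a threshold of 2 TPM, where it was 8. No ratio past 1.5-fold changed sign. Of 63 alternative log2 ratios of single members, 51 stayed inside the counting interval and 12 did not, 9 of them under spike-in scaling. Leading transcript shares of Isl2, Foxp1, Etv4 and Mecom moved by more than the SD between libraries with posterior means, to 65.3%, 35.9%, 35.9% and 22.4% from means of 83.5%, 41.9%, 52.2% and 28.5%. No paired analysis was possible because there is 1 group. Ratios of low genes such as Mnx1 are limited by counts of 54 in replicate 2 and 63 in replicate 1.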
